A study of Mus musculus with 8 samples.

Results

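A set of 9 genes of the transforming growth factor beta (TGF-beta) pathway was followed in fibroblasts on stiff and soft substrates: the ligand genes Tgfb1, Tgfb2 and Tgfb3, the receptor genes Tgfbr1, Tgfbr2 and Tgfbr3, the signal transducer Smad3, and the feedback genes Smad7 and Skil. They were picked by name, though with earlier results of these data known, and all 9 were found among the 12528 genes listed. All 9 also passed the filter on low values, which kept the 12494 genes with a value of 1 CPM or more, the reads of a gene scaled to library size, in 2 or more libraries.

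The cells were immortalized mouse embryonic fibroblasts (MEFs) from wild-type (WT) mice and from littermates lacking caveolin-1 (Cav1KO), the main coat protein of the membrane pits called caveolae. They were seeded sparsely on stiff or soft polyacrylamide hydrogels, and RNA was taken after 24 h, which gave 4 groups, each genotype on each substrate, of 2 libraries each. The labels do not say how many mice or lines lie behind each genotype, nor that the libraries of a group came from separate cultures, so the p-values measure only the spread between these libraries, which may be technical. With a single pair of genotypes, the effect of Cav1 loss and any other difference between the cell lines cannot be told apart.

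Total depth was 17089836 to 19944952 reads per library, and the lowest member value rested on 49 reads (Tgfb2 in Cav1KO stiff 1). Cav1 itself ranged from 949.8 to 1157 CPM across WT cells and never exceeded 0.411 CPM in Cav1KO cells, as the labels have it. Of 10 fibroblast markers 8 were among the genes listed (Thy1 and Lum were not), and each of the 8 was at 1 CPM or more in every library. Their summed level moved with the substrate, from 4397 to 5530 CPM in Cav1KO stiff against 13302 to 13344 CPM in Cav1KO soft, and from 8796 to 9035 CPM in WT stiff against 11182 to 11380 CPM in WT soft. Of the 6 macrophage markers only Cd68 was listed. It was at 0.552 to 0.684 CPM in WT stiff and 1.45 to 1.56 in WT soft. In Cav1KO cells it was at 1.04 to 1.12 CPM on stiff and 3.65 to 4.55 on soft. None of the 7 epithelial, 5 endothelial and 5 skeletal muscle markers was found among the genes listed. The filter behind that list is not given, so their levels are not known. The part of these shifts in the results below was not tested. In bulk RNA, a smaller number of expressing cells and less RNA per cell cannot be told apart.

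TGF-beta ligands are secreted in a latent form and stored in the matrix, from which contractile cells and proteases can release them. The active ligand binds the type II receptor (encoded by Tgfbr2), which recruits and phosphorylates the type I receptor (Tgfbr1), while the co-receptor betaglycan (Tgfbr3) presents ligand, TGF-beta 2 above all. The type I receptor then phosphorylates SMAD2 and SMAD3, which enter the nucleus with SMAD4 and switch on matrix and contractile genes in fibroblasts. SMAD7, which blocks the type I receptor, and SKIL (SnoN), a co-repressor of the SMADs, are themselves induced by the pathway and act as its negative feedback.

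The genes other than Smad7, whose position is not given here, lie as follows in the GRCm38 annotation (GENCODE M21): Tgfb1 on chromosome 7 from 25687002 to 25705077, Tgfb2 on chromosome 1 from 186622792 to 186705989, Tgfb3 on chromosome 12 from 86056745 to 86079041, Tgfbr1 on chromosome 4 from 47353222 to 47414931, Tgfbr2 on chromosome 9 from 116084293 to 116175360, Tgfbr3 on chromosome 5 from 107106570 to 107289629, Smad3 on chromosome 9 from 63646767 to 63757994 and Skil on chromosome 3 from 31095058 to 31122577. All are protein-coding, and their counts cover the exons of each gene. Of the possible 60-nt reads of Tgfb3, 8.21% also fell in other annotated transcripts, as did 3.70% of those of Tgfbr3, 0.359% of those of Tgfb2 and 0.281% of those of Tgfbr2, against none for the other 5 members. Whether the counting used strand is not given in the sources used here.

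RefSeq promoter sequences (GRCm38.p6) were matched for 5 of the 9 members, Tgfb1, Tgfb2, Tgfbr1, Tgfbr2 and Smad3. The 250 bases before the start are shown, 5′ to 3′ on the strand of the gene, for the ligand with the largest stiffness effect (Tgfb2), the ligand most often studied in fibroblasts (Tgfb1) and the only member that was higher in Cav1KO cells on both substrates (Tgfbr1). Capitals mark the core of the SMAD-binding element, CAGAC on either strand.
Tgfb2, chr1:186705990-186706239, minus strand: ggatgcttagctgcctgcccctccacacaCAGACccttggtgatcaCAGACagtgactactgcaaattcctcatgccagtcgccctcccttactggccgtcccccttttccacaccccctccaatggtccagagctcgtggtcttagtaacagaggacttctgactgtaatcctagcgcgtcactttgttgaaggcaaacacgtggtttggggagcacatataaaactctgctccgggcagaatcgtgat
Tgfb1, chr7:25686752-25687001, plus strand: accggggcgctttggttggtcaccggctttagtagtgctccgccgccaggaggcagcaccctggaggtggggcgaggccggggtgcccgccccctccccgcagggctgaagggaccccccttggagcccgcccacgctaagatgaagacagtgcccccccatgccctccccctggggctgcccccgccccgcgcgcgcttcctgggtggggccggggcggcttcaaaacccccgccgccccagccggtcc
Tgfbr1, chr4:47352972-47353221, plus strand: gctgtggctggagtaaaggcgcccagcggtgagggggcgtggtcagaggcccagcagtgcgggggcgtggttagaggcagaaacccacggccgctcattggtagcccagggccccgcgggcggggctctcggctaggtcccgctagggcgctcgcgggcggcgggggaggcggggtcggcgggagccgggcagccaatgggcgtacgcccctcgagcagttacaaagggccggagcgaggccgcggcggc
The Tgfb2 window held 2 CAGAC cores and the Tgfbr2 window 1, while the windows of Tgfb1, Smad3 and the annotated start of Tgfbr1 held none. A second Tgfbr1 entry, 32994 bases downstream, held 1. CAGAC or its complement GTCTG was found in 42.2% of 32851 promoter windows of the same length. None of the 5 genes had in this window the SMAD palindrome GTCTAGAC (0.167% of all windows), the TEAD core CATTCC or GGAATG (12.6%), or the AP-1 element TGACTCA or TGAGTCA (4.46%). The Tgfb1 and Tgfbr1 windows had a GC content of 75.2% and 74.8%, against 53.6% for Tgfb2.

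The comparisons ask how the pathway genes responded to substrate stiffness in each genotype, and how they differed between genotypes on each substrate. In WT cells 5 of the 9 members passed the test between stiff and soft (limma, adjusted p under 0.05), with Tgfb2, Tgfb3 and Tgfbr1 lower and Smad7 and Skil higher on the stiff substrate. Of all genes tested 48.4% passed in this comparison, 22.1% higher and 26.3% lower. In Cav1KO cells 7 members passed, with all 3 ligands, Tgfbr2, Tgfbr3 and Smad3 lower and Tgfbr1 higher on the stiff substrate, where 56.1% of all genes passed (27.9% higher and 28.2% lower). The median log2 fold change of the members, stiff over soft, was -0.28 in WT and -0.85 in Cav1KO cells, against -0.02 for all genes in both. The WT count was 2 without WT stiff 1, 3 without WT soft 1 and otherwise 4 to 7 with a library left out, and the Cav1KO count stayed at 6 or 7.

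Between genotypes on the stiff substrate 8 members passed, with 7 lower and Tgfbr1 higher in Cav1KO cells, where 51.7% of all genes passed (25% higher and 26.6% lower). On the soft substrate 6 members passed, with Tgfb1, Tgfb2, Smad7 and Skil lower and Tgfbr1 and Tgfbr3 higher in Cav1KO cells, where 54% of all genes passed (24.1% higher and 29.9% lower). The median log2 fold change of the members, Cav1KO over WT, was -0.62 on stiff and -0.26 on soft, against -0.03 for all genes in both. The count on stiff was 8 with any library left out, and that on soft ranged from 4 to 8. The genotype comparisons use the same libraries as the stiffness comparisons, so they are not independent of them.

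**Figure D1:**
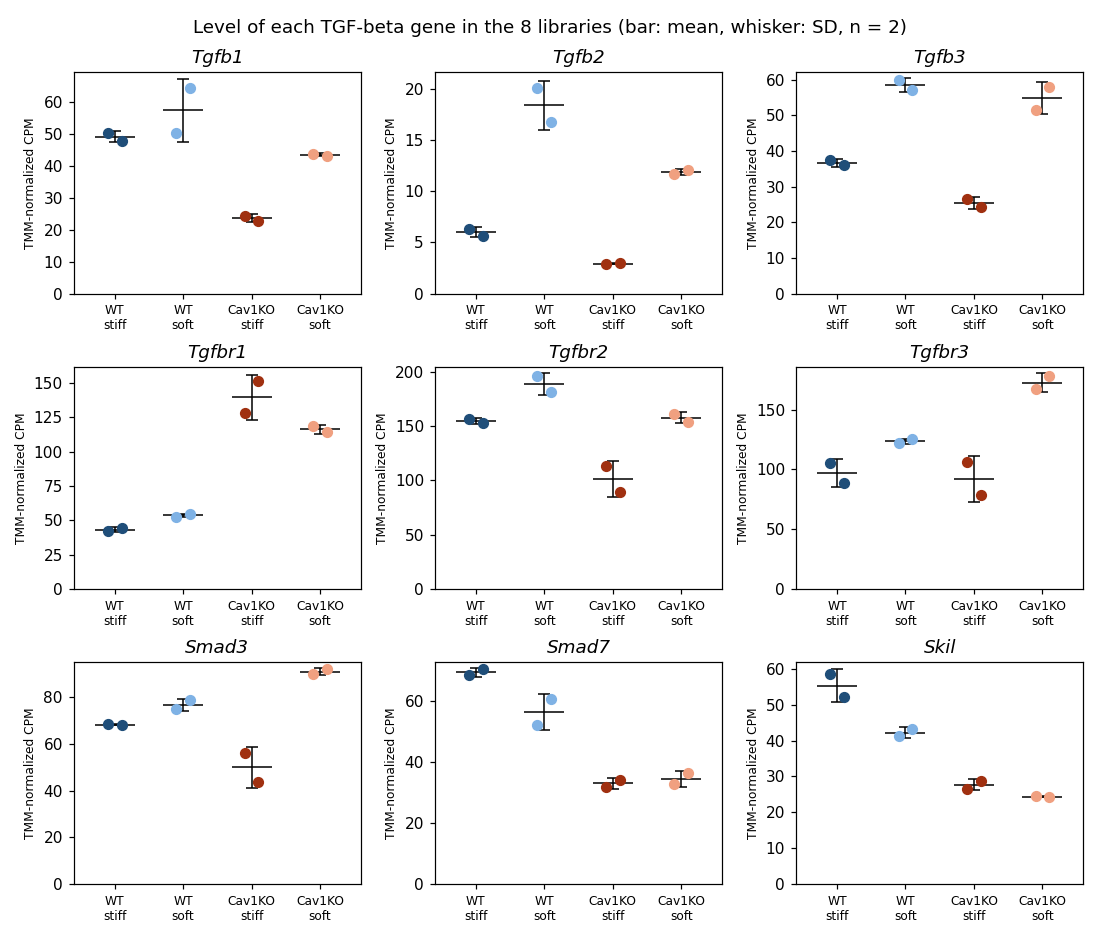
Level of each of the 9 members in the 8 libraries (y axis, CPM; x axis, group). Each point is 1 library and each bar the mean of the 2 libraries of a group. Tgfb2 ran from 2.88 CPM in Cav1KO stiff to 20.1 CPM in WT soft, and Tgfbr1 was at 113.9 CPM or more in every Cav1KO library against 54.5 CPM or less in every WT library.

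Tgfb2, the ligand that depends most on betaglycan to reach its receptors, had the largest stiffness effect of the members in both genotypes. It was at 6.33 and 5.64 CPM in WT stiff, 20.1 and 16.7 in WT soft, 2.88 and 2.96 in Cav1KO stiff and 11.7 and 12.1 in Cav1KO soft. No 2 groups overlapped, and the order was WT soft, Cav1KO soft, WT stiff, Cav1KO stiff. The mean was 3.07-fold lower on stiff than on soft in WT cells (log2 fold change on the log2(CPM + 1) scale -1.47, SE 0.135, limma adjusted p = 0.000100) and 4.06-fold lower in Cav1KO cells (-1.71, adjusted p = 2.98e-05). Tgfb2 was also lower in Cav1KO than in WT cells, 2.05-fold on stiff (-0.83, adjusted p = 0.00106) and 1.55-fold on soft (-0.59, adjusted p = 0.00621). The stiffness effects of the genotypes differed by 0.25 (95% interval -0.19 to 0.68, adjusted p = 0.381), which did not pass.

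Tgfb3, the third TGF-beta ligand gene, needed for closure of the palate, was at 37.5 and 36.0 CPM in WT stiff, 59.8 and 57.2 in WT soft, 26.5 and 24.3 in Cav1KO stiff and 51.6 and 58.0 in Cav1KO soft. Both soft groups stood above both stiff groups, and the soft groups overlapped each other. It was 1.59-fold lower on stiff than on soft in WT (-0.66, SE 0.0927, adjusted p = 0.000648) and 2.16-fold lower in Cav1KO cells (-1.08, adjusted p = 4.05e-05). It was lower in Cav1KO than in WT cells on stiff (1.45-fold, -0.52, adjusted p = 0.00183). On soft the difference was -0.10 (95% interval -0.31 to 0.12, adjusted p = 0.414).

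Tgfb1, the ligand that drives fibrosis in many organs, was at 50.6 and 48.0 CPM in WT stiff, 50.6 and 64.5 in WT soft, 24.5 and 22.9 in Cav1KO stiff and 43.9 and 43.4 in Cav1KO soft. The WT groups overlapped, and every Cav1KO library was below every WT library. In Cav1KO cells it was 1.84-fold lower on stiff than on soft (-0.85, SE 0.117, adjusted p = 0.000390), while the WT effect of -0.21 did not pass (95% interval -0.48 to 0.06, adjusted p = 0.170). The difference between these effects was 0.65 (SE 0.165, limma adjusted p = 0.0455). That call was lost by edgeR (adjusted p = 0.0513). In limma it was lost after quantile normalization (0.0539), with the replicate number as a block (0.0538) and without the mean-variance trend (0.0692). With a library left out, the difference ran from 0.47 (WT soft 1) to 0.82 (WT soft 2). Cav1KO cells had less Tgfb1 than WT cells on stiff (2.08-fold, -1.03, adjusted p = 0.000140) and on soft (1.32-fold, -0.38, adjusted p = 0.0226). The WT soft libraries lay apart (coefficient of variation 17.1%). Without WT soft 1 the WT stiffness effect of Tgfb1 passed at -0.38 (adjusted p = 0.0304), and without WT soft 2 its genotype effect on soft was -0.21 and no longer passed (adjusted p = 0.142). The latter call was also lost, with values of -0.39 and -0.37, without Cav1KO soft 1 (adjusted p = 0.0897) or Cav1KO soft 2 (adjusted p = 0.101).

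Within a library, the ratio of Tgfb1 to Tgfb2 was 7.99 and 8.51 in WT stiff and 8.51 and 7.72 in Cav1KO stiff, against 2.52 and 3.86 in WT soft and 3.77 and 3.59 in Cav1KO soft. The stiff and soft groups did not overlap in this ratio, and the genotypes did on each substrate. The ratio of Tgfb3 to Tgfb1 was 0.742 and 0.749 in WT stiff and between 0.887 and 1.34 in the other 6 libraries. Per kilobase of exon or of the longest coding transcript, Tgfb2 was the lowest ligand in all 4 groups, whereas the order of Tgfb1 and Tgfb3 depended on which length was used.

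Tgfbr1, the type I receptor gene, was at 41.9 and 44.5 CPM in WT stiff, 52.6 and 54.5 in WT soft, 127.9 and 151.0 in Cav1KO stiff and 118.4 and 113.9 in Cav1KO soft. Every Cav1KO library was above every WT library and no neighbouring groups overlapped. The mean was 3.23-fold higher in Cav1KO than in WT cells on stiff (1.66, SE 0.0919, adjusted p = 2.04e-06) and 2.17-fold higher on soft (1.10, adjusted p = 2.10e-05). Stiff was lower than soft in WT (-0.30, adjusted p = 0.0247) and higher than soft in Cav1KO cells (0.26, adjusted p = 0.0404). These effects differed by -0.56 (adjusted p = 0.0373). The Cav1KO stiffness call was lost by DESeq2 (adjusted p = 0.0692). In limma it was lost without the mean-variance trend (0.0713) and after quantile normalization (0.10, adjusted p = 0.342). Median centring lost the WT call (limma adjusted p = 0.0677), and quantile normalization lost that of the difference (0.0604). The genotype differences of Tgfbr1 passed with any library left out. The stiffness effects did not: the Cav1KO effect was 0.14 without Cav1KO stiff 2 (adjusted p = 0.243) and was lost with 7 of the 8 libraries left out, and the WT effect was lost without WT stiff 1, WT soft 1 or WT soft 2.

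Tgfbr2, the type II receptor gene that binds ligand directly, was at 156.7 and 153.1 CPM in WT stiff, 195.7 and 181.5 in WT soft, 113.0 and 89.2 in Cav1KO stiff and 161.0 and 153.9 in Cav1KO soft. Cav1KO stiff lay below all other groups, and Cav1KO soft overlapped WT stiff. It was 1.56-fold lower on stiff than on soft in Cav1KO cells (-0.64, SE 0.107, adjusted p = 0.00112). The WT difference of -0.28 did not pass (95% interval -0.53 to -0.04, adjusted p = 0.0578). That WT difference passed by DESeq2 (adjusted p = 0.0460). In limma it passed after quantile normalization (0.0295) and with the replicate number as a block (0.0332). By edgeR, and in limma without the mean-variance trend, it did not pass. Cav1KO cells had less Tgfbr2 than WT cells on stiff (1.53-fold, -0.62, adjusted p = 0.00150). On soft the difference was -0.26 (adjusted p = 0.0710).

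Tgfbr3, which encodes the co-receptor betaglycan, was at 105.0 and 88.5 CPM in WT stiff, 121.9 and 125.0 in WT soft, 105.8 and 78.4 in Cav1KO stiff and 167.0 and 178.0 in Cav1KO soft. The stiff groups overlapped, and Cav1KO soft was the highest group. It was 1.87-fold lower on stiff than on soft in Cav1KO cells (-0.91, SE 0.137, adjusted p = 0.000648). The WT difference was -0.35, which did not pass (adjusted p = 0.0610). In WT cells Tgfbr3 did pass as lower on stiff by DESeq2 (adjusted p = 0.0320) and in limma after quantile normalization (0.0382), but not by edgeR. On soft it was 1.40-fold higher in Cav1KO than in WT cells (0.48, adjusted p = 0.0170), a call lost without any single soft library (adjusted p 0.0549 to 0.0957). On stiff the genotype difference was -0.08 (95% interval -0.39 to 0.23), and its sign changed without WT stiff 1 or Cav1KO stiff 2. The Cav1KO stiff libraries were far apart for Tgfbr3, Smad3 and Tgfbr2 (coefficients of variation 21.0%, 17.7% and 16.7%), with Cav1KO stiff 2 the lower each time.

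The ratio of the type I to the type II receptor gene was 0.267 and 0.291 in WT stiff and 0.269 and 0.300 in WT soft. In Cav1KO soft it was 0.735 and 0.740, and in Cav1KO stiff 1.13 and 1.69, so that the genotypes did not overlap. The WT substrates overlapped in this ratio and the Cav1KO substrates did not. Per kilobase of exon, the levels in WT stiff were 6.61 CPM for Tgfbr1 and 18.9 CPM for Tgfbr2, and in Cav1KO stiff 21.3 and 12.4 CPM. This reversed order also held per kilobase of the longest coding transcript (7.51 and 19.1 CPM in WT stiff, 24.2 and 12.5 CPM in Cav1KO stiff). In Cav1KO soft the order depended on the length used. Tgfbr1 and Tgfbr2 were there at 17.8 and 19.2 CPM per kilobase of exon. Per kilobase of the longest coding transcript they were at 20.2 and 19.5 CPM.

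**Figure D2:**
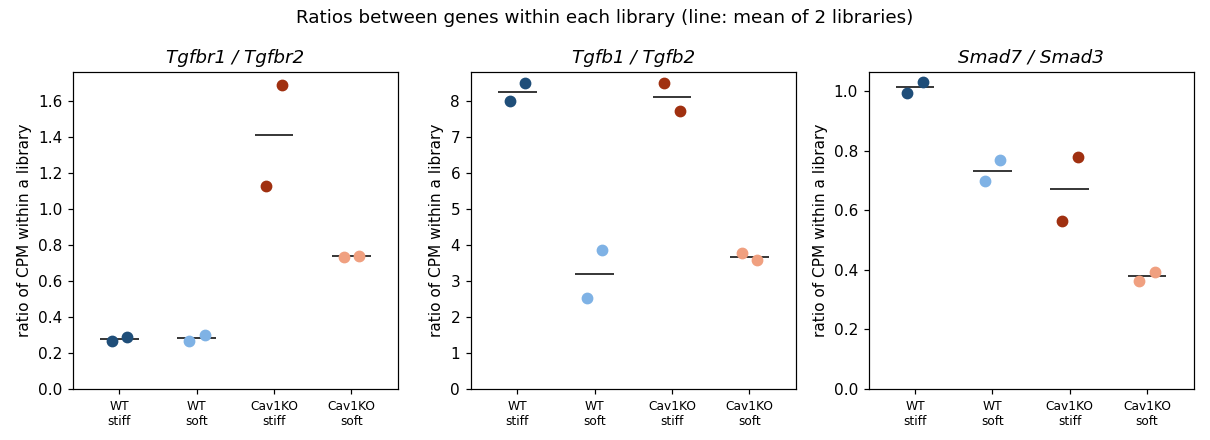
Ratios of member levels within each library (y axis, ratio of CPM, with no unit; x axis, group), with 1 point per library and a line at the mean of 2 libraries, for Tgfbr1 to Tgfbr2, Tgfb1 to Tgfb2 and Smad7 to Smad3. The ratio of Tgfbr1 to Tgfbr2 was 0.300 or less in all WT libraries and 0.735 or more in all Cav1KO libraries, and that of Tgfb1 to Tgfb2 was 7.72 or more in all stiff libraries and 3.86 or less in all soft libraries.

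Smad3, the transducer most tied to matrix gene induction, was at 68.5 and 68.0 CPM in WT stiff, 74.8 and 78.6 in WT soft, 56.1 and 43.7 in Cav1KO stiff and 89.8 and 92.0 in Cav1KO soft. No groups overlapped, and the Cav1KO groups were the highest and the lowest. It was 1.82-fold lower on stiff than on soft in Cav1KO cells (-0.86, SE 0.111, adjusted p = 0.000290), against -0.17 in WT cells (95% interval -0.42 to 0.09, adjusted p = 0.250). The stiffness effects differed by 0.70 (SE 0.157, adjusted p = 0.0350). Cav1KO cells had less Smad3 than WT cells on stiff (1.37-fold, -0.46, adjusted p = 0.00866), with a value of -0.28 without Cav1KO stiff 2, which still passed (adjusted p = 0.0427). On soft the difference was 0.24 (95% interval -0.01 to 0.50, adjusted p = 0.0962).

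Smad7, the inhibitory SMAD that blocks the type I receptor, was at 68.2 and 70.2 CPM in WT stiff, 52.1 and 60.5 in WT soft, 31.7 and 34.0 in Cav1KO stiff and 32.6 and 36.2 in Cav1KO soft. Every Cav1KO library was below every WT library, and the Cav1KO groups overlapped. The mean was 2.11-fold lower in Cav1KO than in WT cells on stiff (-1.05, SE 0.0997, adjusted p = 4.75e-05) and 1.64-fold lower on soft (-0.69, adjusted p = 0.000481). In WT cells stiff was 1.23-fold higher than soft (0.30, adjusted p = 0.0372), a call lost without 5 of the 8 libraries (either WT stiff library, WT soft 1 or either Cav1KO soft library, adjusted p 0.0549 to 0.227), by DESeq2, after quantile normalization and without the mean-variance trend. The value was 0.19 without WT soft 1. In Cav1KO cells the stiffness effect was -0.06 (95% interval -0.29 to 0.17, adjusted p = 0.635), and the effects in the 2 genotypes did not pass as different (0.36, adjusted p = 0.115).

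Skil, which encodes the SMAD co-repressor SnoN, was at 58.7 and 52.0 CPM in WT stiff and 41.2 and 43.3 in WT soft. In Cav1KO cells it was at 26.6 and 28.9 CPM on stiff and 24.5 and 24.2 on soft. The WT groups were ordered as for Smad7, while the order of the Cav1KO means was the reverse. No groups overlapped, and the WT libraries were above the Cav1KO libraries. The mean was 2.0-fold lower in Cav1KO than in WT cells on stiff (-0.97, SE 0.0945, adjusted p = 5.57e-05) and 1.73-fold lower on soft (-0.77, adjusted p = 0.000200). In WT cells stiff was 1.31-fold higher than soft (0.38, adjusted p = 0.0104), a call lost without WT stiff 1 or WT soft 1. The Cav1KO stiffness effect of 0.18 did not pass (95% interval -0.04 to 0.39, adjusted p = 0.139), nor did the difference between the genotypes' effects (0.20, adjusted p = 0.304).

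**Figure D3:**
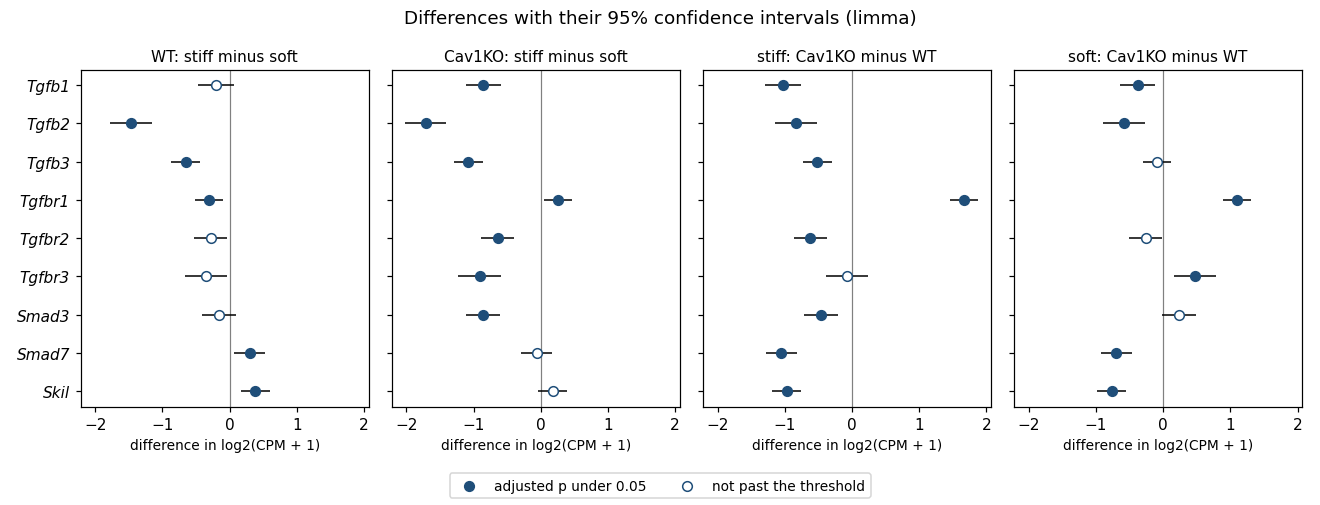
Log2 fold change of each member, on the log2(CPM + 1) scale, with its 95% interval (x axis), in the stiffness comparison within each genotype (stiff over soft) and the genotype comparison on each substrate (Cav1KO over WT). Filled points passed the test. Tgfbr1 stood at 1.66 and 1.10 in the genotype comparisons, where Smad7 stood at -1.05 and -0.69 and Skil at -0.97 and -0.77.

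The ratio of Smad7 to Smad3 within a library was 0.996 and 1.03 in WT stiff, 0.697 and 0.770 in WT soft, 0.565 and 0.779 in Cav1KO stiff and 0.363 and 0.393 in Cav1KO soft. WT soft and Cav1KO stiff overlapped, and Cav1KO soft was the lowest.

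The stiffness effect itself differed between the genotypes for 3 of the 9 members (limma interaction test), where 10.5% of all genes passed (4.47% with a WT effect above the Cav1KO effect and 6% below). Tgfb1 and Smad3 had the more negative effect in Cav1KO cells, and Tgfbr1 the more negative effect in WT cells. The median difference, WT minus Cav1KO, was 0.36 over the members and -0.07 over all genes. These calls depended on single libraries. No member passed without WT stiff 1, WT soft 1, Cav1KO soft 1 or Cav1KO soft 2 (limma; 3 to 6 at an unadjusted p under 0.05), and 6 passed without Cav1KO stiff 1.

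**Figure D4:**
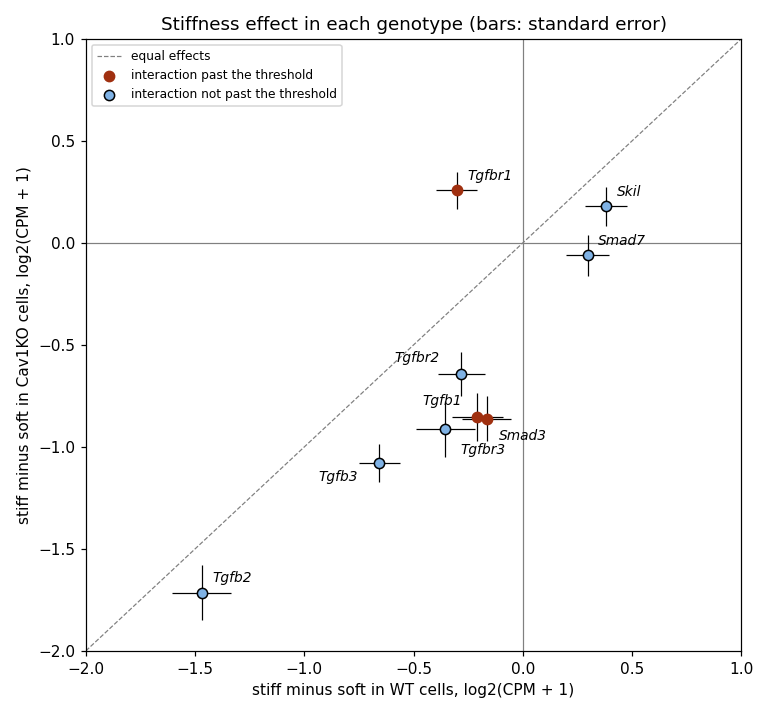
Stiffness effect of each member in Cav1KO cells (y axis) against that in WT cells (x axis), both as log2 fold changes of stiff over soft on the log2(CPM + 1) scale, with the line of equal effects. Bars are standard errors and red points mark the 3 members whose effects differed between genotypes. The ligands lie in the quadrant where both are negative, with Tgfb2 at -1.47 and -1.71, and Tgfbr1 lies at -0.30 and 0.26.

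Across the 8 libraries, which share depth, genotype and substrate, the members whose log2(CPM + 1) levels were most alike were Tgfb2 and Tgfb3 (Pearson r = 0.979), Smad7 and Skil (0.967), and Tgfb1 and Tgfbr2 (0.932). Tgfbr1 ran opposite to Smad7 (r = -0.972) and to Skil (-0.940). Among 10036 other genes with a mean of at least 5 CPM, the pairs most like each ligand were Acadvl and Pld3 for Tgfb2 (both 0.998), Esyt1 (0.991) and Col6a2 (0.990) for Tgfb3, and Zc3h12b and Cttnbp2nl (both 0.987) for Tgfb1. Those most like the receptors were Gusb and Stx6 (both 0.995) for Tgfbr1, Ube2r2 (0.991) and Picalm (0.990) for Tgfbr2, and Trps1 (0.995) and Itpkb (0.994) for Tgfbr3. For the SMAD genes they were Loxl1 (0.987) and Tfap2a (0.986) with Smad3, Clcf1 (0.992) and Clk3 (0.990) with Smad7, and Polr3c (0.992) and Dusp5 (0.991) with Skil. With 4 groups of 2 libraries, many genes reach such values, and they are given as a description.

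The other genes of the pathway were read from 5 lists. Of 25 tested genes for the storage and release of latent ligand (26 listed), 15 were lower and 4 higher on stiff in WT cells. In Cav1KO cells 18 were lower and 2 higher on stiff. The medians were -0.51 in WT and -1.08 in Cav1KO cells. The shares lower were 60.0% and 72.0%, against 26.3% and 28.2% of all genes. Those higher were 16.0% and 8.0%, against 22.1% and 27.9%. Without WT stiff 1 the WT counts were 11 and 0, and without Cav1KO stiff 1 the Cav1KO counts were 21 and 0. Lrrc32, which encodes the surface anchor of latent TGF-beta GARP, was at 17.8 CPM in WT stiff against 51.9 CPM in WT soft (2.91-fold lower, adjusted p = 8.85e-05). Mmp2, a gelatinase gene, was at 373 against 862 CPM in the same comparison (2.31-fold lower). In Cav1KO cells the membrane protease gene Mmp14 was at 49.0 CPM on stiff against 261 CPM on soft (5.34-fold lower, adjusted p = 1.33e-05), and the gelatinase gene Mmp9 was at 4.16 against 23.8 CPM (5.72-fold lower).

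Between genotypes on stiff, 17 genes of the latency list were lower and 4 higher in Cav1KO cells, and on soft 7 were lower and 8 higher. On stiff the shares lower and higher were 68.0% and 16.0%, against 26.6% and 25% of all genes. On soft they were 28.0% and 32.0%, against 29.9% and 24.1%. Without WT stiff 1 the count lower on stiff was 11, and without Cav1KO soft 1 that on soft was 4. Fbn2, which encodes the microfibril protein fibrillin-2, was at 27.9 CPM in WT stiff against 1.75 CPM in Cav1KO stiff (16.0-fold lower, adjusted p = 1.61e-06) and 11.6-fold lower on soft. Ltbp4, a latent TGF-beta binding protein gene, was at 5.31 CPM in Cav1KO stiff against 30.2 CPM in WT stiff (5.69-fold lower). Mmp9 was 10.9-fold higher in Cav1KO soft than in WT soft. The stiffness effect differed between genotypes for 10 genes, all with the more negative effect in Cav1KO cells, led by Fbn1 (difference 1.85, adjusted p = 0.00489) and Mmp9 (1.74, adjusted p = 0.00644), and for 3 to 15 genes as libraries were left out (3 without WT stiff 1, either soft WT library or either Cav1KO soft library, and 15 without Cav1KO stiff 1). Of all genes tested, 10.5% passed this interaction test, 4.47% with the more negative effect in Cav1KO cells. By the annotation, 19.7% of the possible reads of Fbn1 fell in other transcripts too.

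Of 27 tested genes among the other SMADs and their regulators, 6 were higher and 6 lower on stiff in WT cells (22.2% each, against 22.1% and 26.3% of all genes), and 6 were higher and 8 lower in Cav1KO cells (22.2% and 29.6%, against 27.9% and 28.2%), shares near those of all genes. Smad6, the inhibitory SMAD of the BMP branch, was at 34.9 CPM in WT stiff against 64.1 CPM in WT soft (1.84-fold lower, adjusted p = 0.000343), the opposite direction to Smad7. Usp11, a deubiquitinase gene, was 2.18-fold lower on stiff in the same cells. Pmepa1, a feedback gene that sequesters receptor-regulated SMADs, was at 47.9 CPM in Cav1KO stiff against 117 CPM in Cav1KO soft (2.44-fold lower, adjusted p = 2.99e-05). Without WT soft 1 the count higher in WT was 3. Sptbn1, a spectrin gene whose product carries SMADs to the receptor, was 2.57-fold lower on stiff in Cav1KO cells (adjusted p = 0.00354), with 57.6 and 28.9 CPM in the stiff libraries. Between genotypes, 15 of the 27 were lower and 1 higher in Cav1KO cells on stiff (10 and 0 without WT stiff 1), and 11 were lower and 4 higher on soft (9 and 2 without WT soft 1). The shares lower were 55.6% on stiff and 40.7% on soft, against 26.6% and 29.9% of all genes. Those higher were 3.7% and 14.8%, against 25% and 24.1%. Ldlrad4, a membrane inhibitor of SMAD phosphorylation, was 7.96-fold lower on stiff and 5.62-fold lower on soft in Cav1KO cells. Of its possible reads, however, 48.4% fell in other transcripts. Trim33, a ubiquitin ligase gene, was 1.82-fold lower in Cav1KO cells on stiff, and Sptbn1 was 2.22-fold higher on soft. Of all genes tested, 10.5% had a stiffness effect that differed between genotypes. The stiffness effect differed for 4 genes, Sptbn1 (1.90) and Nedd4l (1.14), a ubiquitin ligase gene, the furthest, for 1 without WT stiff 1 or either WT soft library, and for none without either Cav1KO soft library (limma; 5 or 6 at an unadjusted p under 0.05).

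Of 10 tested genes for related receptors, 5 were lower and 1 higher on stiff in WT cells, and 4 were lower and 1 higher in Cav1KO cells. The type I receptor gene Acvr1b was 1.67-fold lower and Acvr1 1.35-fold lower on stiff in WT cells. Bmpr2, the BMP type II receptor gene, was 1.63-fold lower on stiff in Cav1KO cells, and Acvr1 was 1.41-fold lower there. Between genotypes 5 were lower and 3 higher in Cav1KO cells on stiff, and 5 were lower and 1 higher on soft. The activin type II receptor gene Acvr2a was 2.11-fold lower on stiff and 1.98-fold lower on soft, Acvr1 was 1.67-fold lower on stiff, and Bmpr2 was 1.66-fold higher on soft. No gene of this list passed as different between the genotypes' stiffness effects (limma; 3 at an unadjusted p under 0.05, 0 by edgeR and 1 by DESeq2 after adjustment). Of all genes tested, 10.5% passed that limma test. Without WT stiff 1 the WT stiffness counts were 2 lower and 0 higher, as they were by DESeq2. Without Cav1KO soft 1 a single gene was lower on stiff in Cav1KO cells, and Bmpr2 was not called on soft without WT soft 2 or Cav1KO soft 1.

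Of 14 tested genes for related ligands and antagonists, 5 were lower and 3 higher on stiff in WT cells. In Cav1KO cells 4 were lower and 1 higher on stiff. The shares lower were 35.7% and 28.6%, against 26.3% and 28.2% of all genes. Those higher were 21.4% and 7.14%, against 22.1% and 27.9%. The BMP antagonist gene Grem1 was at 24.9 CPM in WT stiff against 109 CPM in WT soft (4.36-fold lower) and at 158 against 398 CPM in Cav1KO cells (2.52-fold lower). Nbl1, another BMP antagonist gene, was 4.40-fold lower on stiff in WT and 4.19-fold lower in Cav1KO cells. Between genotypes 6 were higher and 5 lower in Cav1KO cells on stiff, and 6 were higher and 6 lower on soft. The shares higher in Cav1KO cells were 42.9% on stiff and 42.9% on soft, against 25% and 24.1% of all genes. Those lower were 35.7% and 42.9%, against 26.6% and 29.9%. Fstl3, an activin antagonist gene, had means of 23.5 (stiff) and 15.6 CPM (soft) in WT cells, with a mean of 0.0294 CPM in Cav1KO stiff and 0 in Cav1KO soft, and 46.0% of its possible reads fell in other transcripts. Fst, which encodes follistatin, was at 15.3 and 15.5 CPM in WT stiff and 13.4 and 13.5 in WT soft. In Cav1KO cells Fst was at 38.8 and 37.1 CPM on stiff and 18.8 and 19.5 on soft. Its stiffness effects differed by -0.77 (limma interaction test, adjusted p = 0.0183). Of all genes tested, 10.5% passed that test. The effects differed for 3 genes of this list, and for none without WT stiff 1, WT soft 1 or either Cav1KO soft library (limma; 6 or 7 at an unadjusted p under 0.05).

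Of 33 tested genes that TGF-beta is known to induce or repress in fibroblasts, 23 were lower and 4 higher in Cav1KO cells on stiff. On soft 21 were lower and 4 higher, and the medians were -1.0 on stiff and -0.51 on soft. The shares lower were 69.7% and 63.6%, against 26.6% and 29.9% of all genes. Those higher were 12.1% in both, against 25% and 24.1%. As the list mixes induced and repressed genes, these counts have no single direction for the pathway. Leaving out single libraries gave 21 to 25 and 18 to 21 genes lower. Tagln, a smooth-muscle contractile gene that overlaps Pcsk7, was at 159 CPM in WT stiff against 2.54 CPM in Cav1KO stiff (62.5-fold lower), and 56.3% of its possible reads fell in other transcripts. Loxl2, a collagen crosslinking enzyme gene, was at 40.9 CPM in WT soft against 0.285 CPM in Cav1KO soft, with 44.4% of its possible reads shared. Postn, which encodes the matrix protein periostin, went the other way, at 76.3 CPM in Cav1KO stiff against 0.630 CPM in WT stiff and at 488 against 2.54 CPM on soft. Col1a1, Col1a2, Col3a1 and Fn1 of this list are also among the fibroblast markers, as is Dcn of the latency list. The summed level of those markers moved with the substrate and differed between genotypes. It was lower in Cav1KO than in WT cells on stiff and higher on soft. The list holds genes from many matrix and contractile programmes, and a gene on it need not depend on TGF-beta in these cells.

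With stiffness, 16 genes of the target list were lower and 9 higher on stiff in WT cells, and 17 were lower and 9 higher in Cav1KO cells. The shares lower were 48.5% and 51.5%, against 26.3% and 28.2% of all genes, and the share higher was 27.3% in both, near the 22.1% and 27.9% of all genes. Col3a1, which encodes a fibrillar collagen, was 4.36-fold lower on stiff in WT and 5.12-fold lower in Cav1KO cells. Cdkn2b, the cell cycle inhibitor p15, was 2.93-fold lower on stiff in WT cells, and Postn was 6.40-fold lower on stiff in Cav1KO cells. Stiffness effects differed for 17 of the 33, where 10.5% of all genes passed, with 11 more negative in Cav1KO cells and 6 more negative in WT cells (1 of the former without Cav1KO soft 1, and 2 of the latter without WT stiff 1). Cdkn1a, the cell cycle inhibitor p21, had the difference of -2.07 (adjusted p = 0.00286), with 6.76 CPM in WT stiff against 15.6 CPM in WT soft and 4.19 CPM in Cav1KO stiff against 1.63 CPM in Cav1KO soft. Col1a1, the main fibrillar collagen gene, had that of 1.86 (adjusted p = 0.00457), with 2563 against 2154 CPM in WT and 725 against 2175 CPM in Cav1KO cells.

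**Figure D5:**
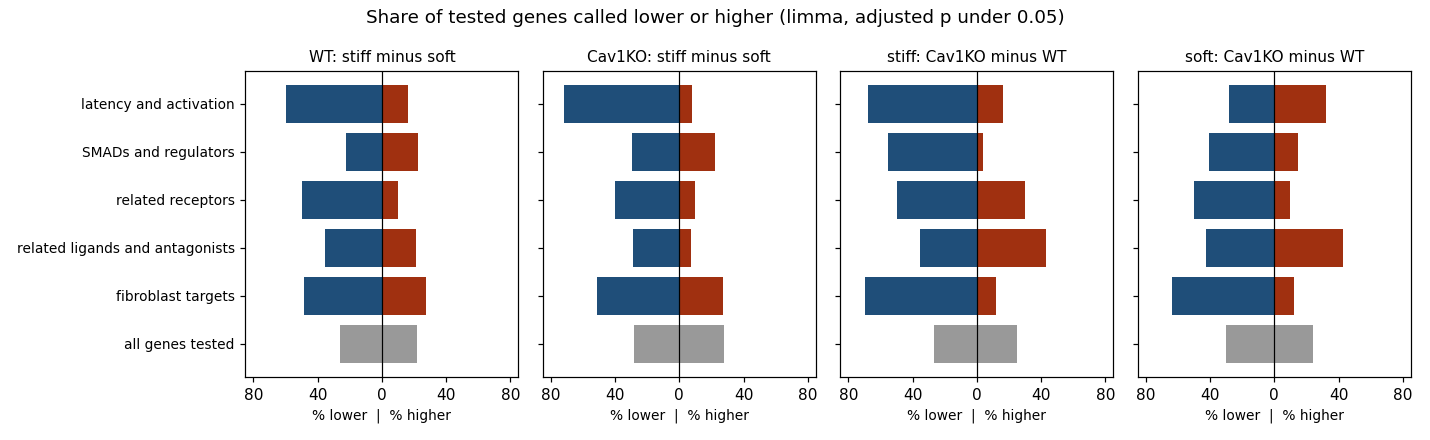
Share of the tested genes of each pathway list (x axis, percent) that were higher or lower in the stiffness comparison of each genotype and in the genotype comparison on each substrate, beside the share among all genes tested. In the latency list 60.0% of genes were lower on stiff in WT cells, against 26.3% of all genes.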

How the data were processed

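RNA-seq was made from 500 ng of total RNA of immortalized MEFs with a poly(A) kit (NEBNext Ultra) and read as 60-nt single reads. The submitters' processing notes name CASAVA 1.8.2, cutadapt, RSEM 1.2.3 and GRCm38. The annotation, the filter on low genes and the tool for scaling are not given in the sources used here. The deposited table holds TMM-normalized signal per gene and library, in CPM. All values (100%) were whole multiples, within 0.01 reads, of 1 read's worth in their library, and reads were recovered from these steps.

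limma 3.58.1 (R 4.3.3) was run on the genes at 1 CPM or more in 2 or more libraries, on log2(CPM + 1), which understates changes of low genes. The fit held all 8 libraries, used limma's mean-variance trend, had no block and left 4 residual degrees of freedom. Two-sided p-values were adjusted (Benjamini-Hochberg) over all genes tested, at 0.05. Folds are ratios of group means in CPM. Alternatives included edgeR 4.0.16 and DESeq2 1.42.0 on the recovered reads. The script was tested on simulated data.

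The members and lists were chosen with earlier results of these data known. Named were the 9 members, Cav1, the 2 genes with the largest passing change per list and comparison (mean of at least 5 CPM), and the 2 genes most correlated with each member. A gene that this rule names is not reported here. Groups follow the labels' genotype and substrate. A 0 allows up to 3 reads, and such limits cover counting error only.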

Additional observations from a re-analysis of the deposited data

Results flagged for a closer look

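By limma's interaction test, the stiffness effect (stiff over soft, log2) differed between WT and Cav1KO cells for the 10 genes flagged here. Differences are given as the WT effect minus the Cav1KO effect. The 10 are not all the named genes that passed, as Ltbp4 did too (1.47, adjusted p = 0.0402). Among the members the differences were 0.65 for Tgfb1, -0.56 for Tgfbr1 and 0.70 for Smad3. The calls of these members depended on single libraries, and none of them passed in limma without the mean-variance trend. Among the genes of the pathway lists they were 1.85 for Fbn1, 1.74 for Mmp9, 1.90 for Sptbn1, 1.14 for Nedd4l, -0.77 for Fst, -2.07 for Cdkn1a and 1.86 for Col1a1. In these groups of 2 libraries, no test for a single outlying library was made.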

How the results depend on the processing

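The number of members that passed stayed within 1.5 times the reported number under pseudocounts of 0.5 and 5, no filter or a mean of at least 5 CPM, median centring, edgeR and DESeq2, in all 5 comparisons. With at least a 1.5-fold change also required, 2 members passed for stiffness in WT. For the difference between the stiffness effects, 0 passed in limma without the mean-variance trend (6 at an unadjusted p under 0.05, 2 by edgeR and 4 by DESeq2 after adjustment) and 1 after quantile normalization. With each library left out in turn, the count ranged from 2 to 7 for stiffness in WT, 6 to 7 for stiffness in Cav1KO, 0 to 6 for the difference, 8 to 8 for genotype on stiff and 4 to 8 for genotype on soft. The sign changed for Tgfbr3, genotype on stiff (-0.29 to 0.13 with a library left out, above 0 at 0.04 without WT stiff 1 and 0.13 without Cav1KO stiff 2), and for Smad7, stiffness in Cav1KO (0.026 under median centring, and -0.13 to 0.012 with a library left out, above 0 without Cav1KO soft 2), and neither had passed. The cause was not tested. Median centring took the median over all genes of the difference between the stiffness effects from -0.07 to -0.11. It took the median stiffness effect in Cav1KO cells from -0.02 to 0.06. The calls for stiffness in Cav1KO over all genes changed from 3488 higher and 3527 lower to 3989 and 2960 (3826 and 3014 after quantile normalization).

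With the replicate number as a block, 6, 7, 2, 8 and 7 members passed (stiffness in WT, stiffness in Cav1KO, difference, genotype on stiff, genotype on soft), against 5, 7, 3, 8 and 6 without the block. The labels do not tie the numbers to a shared batch, and the correlations of replicate differences between groups ran from -0.367 (WT soft with WT stiff) to 0.415 (Cav1KO stiff with WT stiff), so the numbers were not taken to pair the libraries. A block with the numbers of WT soft crossed, chosen after seeing the data, gave 7, 7, 5, 8 and 7. Differences of the size of the SE (0.0919 to 0.137 for members within a genotype or substrate) could not be detected with 2 libraries per group.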
